A study of Mus musculus with 2 samples.

Results

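RANKL, its receptor RANK and the decoy receptor osteoprotegerin, encoded by Tnfsf11, Tnfrsf11a and Tnfrsf11b, were followed across the cell types of mouse long bone. The 3 genes were picked by name from the 28380 genes listed in the deposited tables. Single-cell RNA-seq had been done on femur and tibia of C57BL/6 mice at postnatal day 30, with 1 library for each of the groups Control and Dach1OE. Both groups carried the conditional Dach1OE +/f allele, both were given tamoxifen in the first days after birth, and both sexes were used. In Dach1OE the allele was switched on by Apj CreERT2, a tamoxifen-inducible recombinase driven from the apelin receptor gene, whereas Control mice lacked the recombinase. The methods state that 2 mice were pooled in each library, that the epiphysis was removed, and that cells bearing CD45, CD117 or lineage markers were depleted before capture.

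RANKL is a membrane-bound cytokine of the tumour necrosis factor family. In bone it is displayed by mesenchymal stromal cells, osteoblast-lineage cells, osteocytes and hypertrophic chondrocytes, and it drives macrophage-lineage precursors to fuse into osteoclasts when it meets RANK on their surface. RANK signals through TRAF6 and NF-kB to NFATc1, while osteoprotegerin is secreted, binds RANKL and keeps it from RANK, so that bone resorption depends on the balance of ligand and decoy.

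The genes lie on 3 chromosomes of the GRCm38 build, in positions taken here from the GENCODE vM21 annotation, in which all are protein coding. Tnfsf11 (ENSMUSG00000022015.8) spans chr14:78277445-78308043 on the minus strand. Tnfrsf11a (ENSMUSG00000026321.7) spans chr1:105780718-105847981 on the plus strand. Tnfrsf11b (ENSMUSG00000063727.3) spans chr15:54250619-54278484 on the minus strand.

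The 250 bases before the RefSeq start of ligand and receptor are shown because they differ in CpG content and motifs. The Tnfsf11 stretch is chr14:78308044-78308293 (GRCm38.p6, minus strand), the Tnfrsf11a stretch is chr1:105780473-105780722 (plus strand), and both are written 5′ to 3′ with the motifs found by search in capitals, TATAA in the first and GGGCGG in the second.
Tnfsf11: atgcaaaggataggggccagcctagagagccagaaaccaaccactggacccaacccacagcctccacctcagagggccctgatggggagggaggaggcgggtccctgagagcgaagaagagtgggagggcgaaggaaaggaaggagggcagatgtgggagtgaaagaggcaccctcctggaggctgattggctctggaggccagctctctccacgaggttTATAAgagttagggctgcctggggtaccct
Tnfrsf11a: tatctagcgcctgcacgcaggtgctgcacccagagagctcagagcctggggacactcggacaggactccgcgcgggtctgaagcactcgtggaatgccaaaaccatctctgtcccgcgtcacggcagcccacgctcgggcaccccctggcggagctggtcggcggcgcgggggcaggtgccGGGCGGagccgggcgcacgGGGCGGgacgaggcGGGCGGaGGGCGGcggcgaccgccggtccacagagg
The ligand promoter held 4 CpG dinucleotides at 60.4% GC, and its TATAA began 30 bases before the start. TATAA was found within 40 bases before the start, on the strand of the gene, in 1391 of 32851 RefSeq promoters of this length (4.23%). The receptor promoter held 31 CpG dinucleotides at 73.6% GC and 4 copies of GGGCGG, the letters of the GC box, which occur on either strand in 10756 promoters (32.7%). All promoters had medians of 52.4% GC and 6 CpG dinucleotides. Such matches describe the letters only.

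The tables held 28720 and 32028 cells for Control and Dach1OE, with 143986818 and 166999989 UMIs (error-corrected molecule counts) in all. After filters on genes and mitochondrial share, 26466 and 29317 cells were kept, at medians of 3794 and 4055 UMIs. Clusters were named from marker genes, with the 3 genes kept out of the clustering, and gave bone mesenchymal stromal cells (BMSCs, here with osteoblasts and osteocytes), endothelial cells (ECs), chondrocytes, fibroblasts, smooth muscle cells or pericytes, and haematopoietic cells. Each name stands for cells that are like the type by its markers (osteoblast-like, EC-like and so on). Of these, 5355 and 4310 cells were BMSCs and 8573 and 8818 were ECs. Among ECs Dach1 stood at 143 UMIs in Control and 5959 in Dach1OE, 5.02 and 206 CPM (UMIs of a gene per 1000000 UMIs of the same cells). It was also higher among smooth muscle cells or pericytes, at 5.14 and 27.5 CPM, and fibroblasts, at 1.94 and 11.1 CPM. A set of 1049 cell indexes occurred in both tables. With 1 library per group no test between groups could be made, and every interval below is a 95% interval of counting error alone. Genotype, mice and library preparation cannot be told apart.

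Transcripts of the ligand came mostly from BMSCs. Over all kept cells Tnfsf11 had 1383 UMIs in 1072 Control cells (4.05% of cells) and 883 UMIs in 656 Dach1OE cells (2.24%), and BMSCs held 76.1% and 67.6% of these UMIs. Within BMSCs the levels were ordered from diaphyseal stromal cells to osteocytes. The diaphyseal cells (dpMSCs), marked by Lepr, Cxcl12, Adipoq and Kitl, had 797 UMIs in Control and 299 in Dach1OE, or 113 and 102 CPM. A Tnfsf11 UMI was seen in 601 (24.1%) and 235 (23%) of these cells. In haematopoietic cells, which served as the level of free RNA, the shares were 0.293% and 0.206% at medians of 4633 and 4511 UMIs per cell, against 2685 and 2669 in dpMSCs.

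Septoclast-like cells, a stromal type of the chondro-osseous border that resorbs cartilage matrix, came next. They held 85 and 144 Tnfsf11 UMIs, 83.9 and 112 CPM, in 26.2% and 31.5% of cells, with CPM intervals that lay below those of dpMSCs in Control (67.1 to 104 against 106 to 121) and overlapped them in Dach1OE (94.8 to 132 against 91.2 to 115). The name rests on Mmp9 (19714 and 24577 CPM), Fabp5 (1062 and 1410 CPM), Mmp11, Cd55 and Ctsb. Of the other listed markers, Dpp4 was near 0, at 0.988 and 0.781 CPM, and Dlk1 was low, at 16.8 and 21.1 CPM. When each cell was thinned to 1000 UMIs the shares were 10.3% and 7.93% in dpMSCs and 6.97% and 11.8% in septoclast-like cells, so that the type with the larger share differed between the libraries. A cluster without a name, led by Rbp4, Ffar4, Gdf5, Spp1 and Mmp13, followed with 34 and 43 UMIs, 53.2 and 52.5 CPM. Metaphyseal stromal cells (mpMSCs), marked by Postn, Aspn and Wif1, had 125 and 108 UMIs, 38.4 and 40.8 CPM, in 10.8% and 11.1% of cells. At least 10% mitochondrial UMIs were found in 72.8% and 69.3% of mpMSCs, against 10.4% and 16.1% of dpMSCs. Proliferating BMSCs had 25 and 34 UMIs, 28.7 and 44.9 CPM, a range that overlapped that of mpMSCs.

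The bone-forming cells were at the other end. Osteoblasts, the matrix producers marked by Bglap and Ibsp, held 19 and 12 Tnfsf11 UMIs, 1.85 and 0.815 CPM, although they were sequenced far deeper per cell than dpMSCs (medians of 7610 and 7691 UMIs). Of these UMIs, 15 and 9 lay in the subcluster led by Panx3 and Notum, at 3.38 and 1.46 CPM. The subcluster led by Bglap2 and Bglap held 4 and 3, 0.686 and 0.350 CPM. Osteocytes, matrix-embedded cells known as a source of RANKL in adult bone, held 1 UMI in Control and 0 in Dach1OE. The osteocyte cluster was rich in Dmp1 (4102 and 3482 CPM) and Phex (2240 and 2174 CPM), but the markers of mature osteocytes were low, with Sost at 35.8 and 77.4 CPM, Mepe at 6.11 and 1.37 CPM and Fgf23 at 0 and 0.685 CPM. Chondrocytes had 37 and 44 UMIs, 1.0 and 0.898 CPM, and ECs 20 and 12, 0.703 and 0.414 CPM, beside a haematopoietic level of 0.494 and 0.342 CPM. The chondrocyte UMIs were uneven, since the cluster led by R3hdml, Fn1 and Ibsp held 14 and 18 of them, 3.46 and 2.66 CPM, the upper zone 2 and 10, 1.66 and 6.06 CPM, with 7 of the 10 in 1 cell, and hypertrophic chondrocytes 2 and 0.

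**Figure D1:**
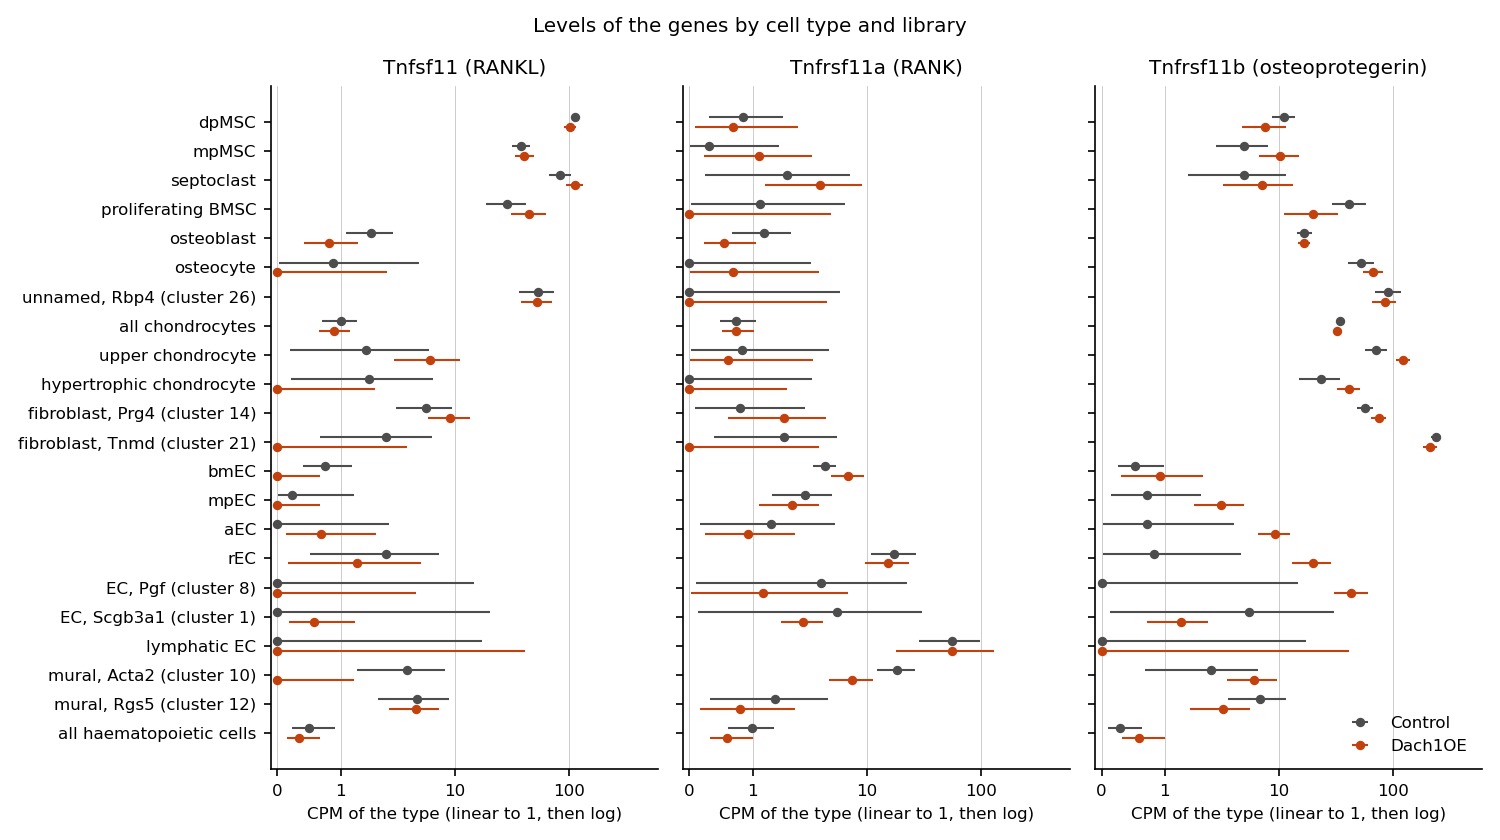
Level of each gene by cell type in Control (grey) and Dach1OE (orange), in CPM on an axis that is linear to 1 and logarithmic beyond, with 95% Poisson intervals of the UMI counts. Tnfsf11 is highest in dpMSCs and septoclast-like cells (83.9 to 113 CPM) and near 1 CPM in osteoblasts, Tnfrsf11a in lymphatic ECs, rECs and the Acta2 cluster of mural cells, and Tnfrsf11b in the Tnmd fibroblasts (240 and 211 CPM) with next to none in Control ECs.

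Within dpMSCs the ligand was spread over both main subclusters. The cells led by Cbln1 and Fmo2 had 474 and 161 UMIs, 147 and 116 CPM. Those led by Slc26a7, Ptx3, Rspo3 and Il7, the last a cytokine for B lymphocyte precursors, had 319 and 129 UMIs, 85.7 and 88.0 CPM. The ligand was thus higher in the first in both libraries, and the decoy lay the other way, at 5.26 and 2.89 CPM in the first and 16.1 and 10.9 CPM in the second. Most cells with the ligand carried a single UMI of it, 463 of 601 in Control and 183 of 235 in Dach1OE, and no dpMSC carried more than 5.

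Between the libraries, Tnfsf11 over all BMSCs was 1.78-fold lower in Dach1OE, while its level was close within the pooled dpMSCs and within mpMSCs. All BMSCs held 1052 and 597 UMIs, 44.6 and 25.1 CPM, a log2 ratio of Dach1OE over Control of −0.83 (−0.98 to −0.68). The median log2 ratio of all genes in BMSCs was −0.21, so that relative to it the ligand was lower by less (log2 ratio −0.62 after scaling by trimmed means). None of the 3 genes was 2-fold or more higher or lower in BMSCs, where 0.746% of 15686 genes with at least 20 UMIs were that much higher and 4.97% that much lower. In dpMSCs alone the log2 ratio of Tnfsf11 was −0.14 (−0.34 to 0.05). Neither Tnfsf11 nor Tnfrsf11b, the genes with enough UMIs there, was past 2-fold, against 1.18% of 12179 genes higher and 1.77% lower. In the dpMSC subcluster led by Cbln1 and Fmo2 the log2 ratio of Tnfsf11 was −0.33 (−0.60 to −0.07). In the one led by Slc26a7 it was 0.04 (−0.27 to 0.34). The log2 ratio was 0.09 in mpMSCs, 0.42 (0.02 to 0.83) in septoclast-like cells, 0.64 in proliferating BMSCs and −1.18 (−2.36 to −0.07) in osteoblasts. Leaving out the 1 cell with most UMIs took the ratio of septoclast-like cells to 0.37 (−0.03 to 0.77) and that of osteoblasts to −0.94 (−2.15 to 0.23).

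The make-up of the BMSCs differed between the libraries along with the ligand. Cells named dpMSCs were 46.5% of BMSCs in Control and 23.7% in Dach1OE, osteoblasts 24.9% and 43.6%, and septoclast-like cells 4.56% and 7.08%. As osteoblasts carry more UMIs per cell, they gave 43.5% and 61.9% of all BMSC UMIs but only 1.81% and 2.01% of those of Tnfsf11. The dpMSC part of the Tnfsf11 UMIs was 75.8% in Control and 50.1% in Dach1OE, that of septoclast-like cells 8.08% and 24.1%, and that of mpMSCs 11.9% and 18.1%. Control levels per type combined with the Dach1OE shares gave 24.8 CPM, while Dach1OE levels with the Control shares gave 43.0 CPM. With every type weighted alike the levels were 44.5 and 50.2 CPM, a log2 ratio of 0.17 that has no interval. A type that was rarer in the bone and one that was recovered less well cannot be told apart.

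A second definition of the types took, for each cell, the list with the largest share of its markers seen. It put the ligand in dpMSCs, mpMSCs and osteoblasts in the same order, but septoclast-like cells stood near mpMSCs. By this gate dpMSCs (3073 and 1369 cells, of which 300 and 208 lay within 1 marker in 8 of another type) held 930 and 382 Tnfsf11 UMIs, 95.8 and 86.5 CPM, and mpMSCs 40 and 29 UMIs, 37.6 and 40.3 CPM. Of the 282 and 197 gated mpMSCs, however, 168 and 112 lay that near to another type. Gated septoclast-like cells held 49 and 112 UMIs of the ligand, 37.0 and 43.3 CPM, below the level of their cluster. They held 35 and 60 UMIs of the decoy, 26.4 and 23.2 CPM. Of these 237 and 391 cells, 130 and 210 lay that near to another type. Gated osteoblasts had 81 and 80 UMIs, 5.2 and 3.77 CPM, above the level of the osteoblast clusters. Only 27 and 32 cells were gated as osteocytes, with 0 UMIs of the ligand and 14 and 17 of the decoy.

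**Figure D2:**
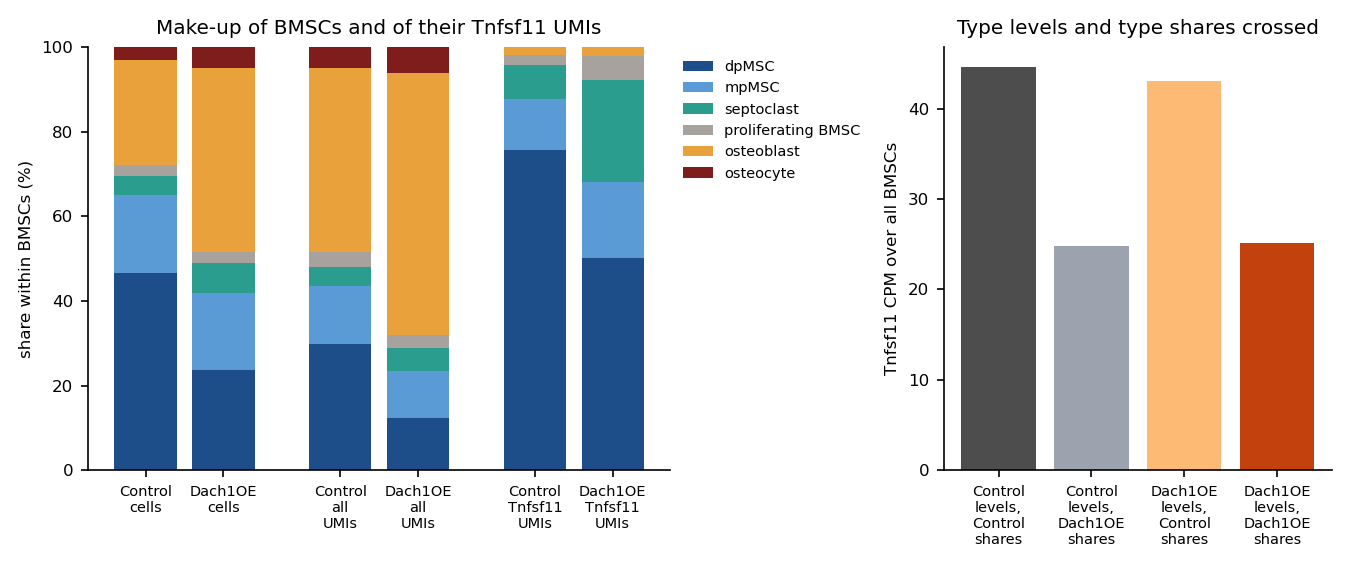
Left, the share of each BMSC type (%) among cells, all UMIs and Tnfsf11 UMIs of the BMSCs in each library. Right, Tnfsf11 in CPM over all BMSCs when the levels per type of one library are combined with the UMI shares of either: the bars with Control shares stand at 44.6 and 43.0 CPM, those with Dach1OE shares at 24.8 and 25.1 CPM.

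Cells could also be told apart by sex within each pool, from UMIs of Xist without any of 4 Y-linked genes or the reverse. Among BMSCs told apart in this way, 68.5% of Control and 57.7% of Dach1OE cells had Xist only. In dpMSCs with Xist only, Tnfsf11 had 234 and 120 UMIs, 82.5 and 109 CPM, a log2 ratio of 0.41 (0.08 to 0.73). In dpMSCs with Y-linked UMIs only it had 195 and 61 UMIs, 142 and 98.9 CPM, a log2 ratio of −0.53 (−0.97 to −0.10). The libraries therefore stood in opposite order in the cells of the sexes, and the pooled ratio of −0.14 holds both along with the dpMSCs that could not be told apart. Within Control the Y-linked dpMSCs lay 1.73-fold above the Xist dpMSCs, a log2 ratio of 0.79 (0.51 to 1.07), whereas within Dach1OE the ratio was −0.15 (−0.62 to 0.31). Cells of the same library and type thus differed by more than the pooled dpMSCs of the 2 libraries did. For all BMSCs the order was the same in both, from 34.9 to 28.0 CPM in Xist cells (log2 ratio −0.32) and from 51.2 to 22.6 CPM in Y-linked cells (−1.18). Where each pool held a mouse of either sex, each of these sets comes from a single mouse, so that sex and mouse cannot be told apart.

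**Figure D3:**
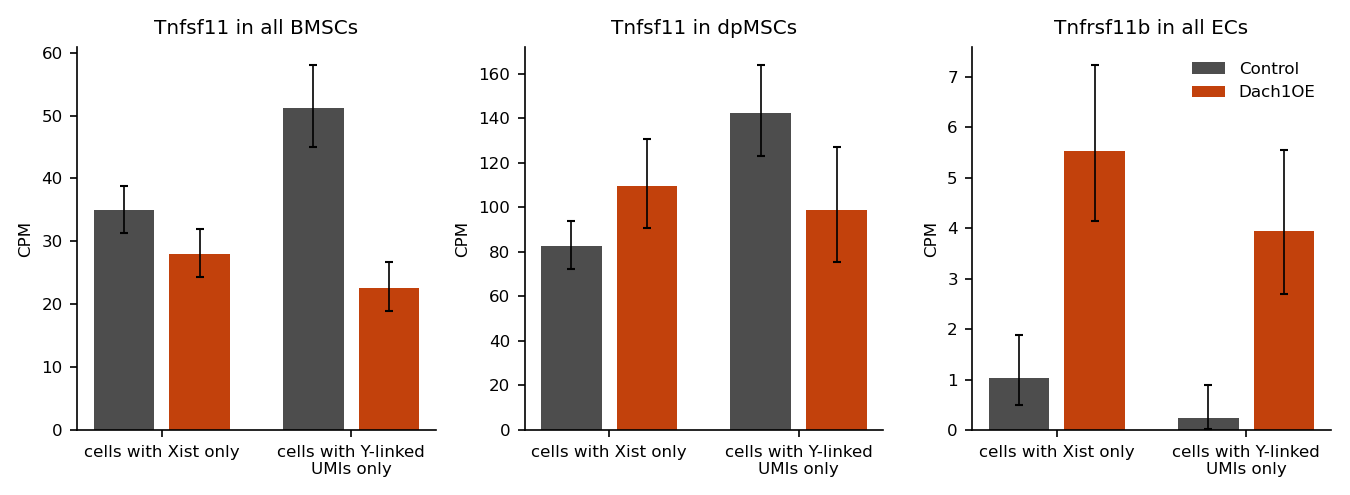
Tnfsf11 in all BMSCs and in dpMSCs, and Tnfrsf11b in all ECs, in CPM for cells with Xist only and cells with Y-linked UMIs only (bars, with 95% Poisson intervals) in Control (grey) and Dach1OE (orange). In dpMSCs the Dach1OE bar is the higher among Xist cells (109 against 82.5 CPM) and the lower among Y-linked cells (98.9 against 142 CPM), while in ECs the Dach1OE bar is the higher in both.

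The decoy receptor came from other cells than the ligand. Tnfrsf11b had 2593 UMIs in 1616 Control cells (6.11%) and 3046 in 1971 Dach1OE cells (6.72%). Chondrocytes held 48.4% and 52.2% of them, fibroblasts 20.4% and 13.1%, and BMSCs 14.1% and 13.6%. Haematopoietic cells had 6 and 14 UMIs, 0.297 and 0.599 CPM, with a UMI in 0.176% and 0.309% of cells.

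The highest level was in a fibroblast cluster led by Tnmd, Kera and Thbs4, genes of tendon and ligament. Its 324 and 191 cells held 385 and 203 UMIs, 240 and 211 CPM, in 45.1% and 39.8% of cells, with up to 13 UMIs in 1 cell. The other fibroblast cluster, led by Clec3b, Prg4 and Dpt, had 143 and 197 UMIs, 57.0 and 74.6 CPM. In all fibroblasts together the log2 ratio was −0.21 (−0.40 to −0.02), and its sign differed between the clusters, at −0.18 and 0.39, the latter 0.31 (−0.01 to 0.63) without 1 cell. By sex of the cells it was 0.05 (−0.27 to 0.37) in Xist fibroblasts and −0.76 (−1.22 to −0.31) in Y-linked fibroblasts. The unnamed Rbp4 cluster, which also held the ligand, had 58 and 69 UMIs of the decoy, 90.8 and 84.2 CPM.

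Among chondrocytes the decoy was uneven over the clusters. Chondrocytes named as upper zone held 86 and 201 UMIs, 71.3 and 122 CPM, in 22.3% and 35.0% of cells, a log2 ratio of 0.77 (0.40 to 1.15). The name rests on 3 of 5 listed markers. The cluster was led by Col3a1, Spon1 and Sfrp5, with Clu but not the listed marker Ucma among its leading genes. Hypertrophic chondrocytes, marked by Col10a1, had 26 and 76 UMIs, 23.1 and 40.9 CPM, a log2 ratio of 0.82 (0.16 to 1.52). Without the 1 Dach1OE cell that held 11 of these UMIs, the ratio of hypertrophic chondrocytes was 0.60 (−0.07 to 1.32). Other clusters lay the other way, with log2 ratios of −0.60 in cells without a zone name led by R3hdml, Fn1 and Ibsp, −0.42 in proliferating chondrocytes, and −0.26 and −0.43 in unnamed clusters led by Slc1a3 and Smpd3 and by the early response genes Egr2 and Atf3. Without 1 Control cell each, the last 2 were −0.23 (−0.47 to 0.02) and −0.34 (−0.75 to 0.05). Over all chondrocytes these cancelled, at 1254 and 1590 UMIs, 33.9 and 32.5 CPM, a log2 ratio of −0.06. By sex of the cells, the ratio over all chondrocytes was −0.28 in Xist cells and 0.27 in Y-linked cells, while the part of Xist cells was 63.6% in Control and 48.9% in Dach1OE.

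Along the osteoblast lineage the decoy was highest where the ligand was lowest. Osteocytes held 60 and 98 UMIs of Tnfrsf11b, 52.4 and 67.1 CPM, in 24.5% and 30.0% of cells. Osteoblasts held 171 and 244, 16.6 CPM in both libraries, dpMSCs 77 and 22, 10.9 and 7.54 CPM, and mpMSCs 16 and 27, 4.92 and 10.2 CPM. Proliferating BMSCs stood at 36 and 15 UMIs, 41.4 and 19.8 CPM. The libraries differed in opposite directions in mpMSCs, with a log2 ratio of 1.05 (0.11 to 2.04), and in proliferating BMSCs, with −1.06 (−2.04 to −0.16). A single Control cell held 16 of the 36 UMIs of the latter, and without it there were 20 and 15 UMIs, 23.2 and 19.8 CPM, a log2 ratio of −0.23 (−1.30 to 0.81). Without the Dach1OE mpMSC with most UMIs, 4 of 27, the ratio of mpMSCs was 0.83 (−0.16 to 1.84). Over all BMSCs there were 365 and 415 UMIs, 15.5 and 17.4 CPM, a log2 ratio of 0.17 (−0.03 to 0.38). After scaling by trimmed means it was 0.38 (0.17 to 0.59).

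Single dpMSCs rarely showed ligand and decoy together. In Control a Tnfrsf11b UMI was found in 17 of 601 cells with Tnfsf11, 2.83% (1.66 to 4.49), and in 2.59% (1.93 to 3.42) of the other dpMSCs. In Dach1OE it was found in 8 of 235, 3.40% (1.48 to 6.60), and in 1.53% (0.791 to 2.65) of the others. The intervals overlapped in both libraries, and cells with the ligand were the deeper ones, at medians of 2876 against 2592 UMIs in Control.

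Set against each other, ligand and decoy UMIs of the same cells cancel the total of the class. Over all BMSCs there were 2.88 Tnfsf11 UMIs per Tnfrsf11b UMI in Control and 1.44 in Dach1OE, a log2 change of −1.0 (−1.25 to −0.75). Within dpMSCs the ratio was 10.4 and 13.6, a change of 0.39 (−0.32 to 1.10), and within septoclast-like cells 17.0 and 16.0. Septoclast-like cells gated one by one held 49 and 112 ligand UMIs and 35 and 60 decoy UMIs, so that their high ratio depends on the clusters. In mpMSCs the ratio was 7.81 and 4.0, and in proliferating BMSCs 0.694 and 2.27, a change of 1.71 (0.56 to 2.85). Without the Control cell with 16 decoy UMIs the ratio of proliferating BMSCs was 1.25 in Control and the change 0.86 (−0.36 to 2.08). Osteoblasts held 9.0 decoy UMIs per ligand UMI in Control and 20.3 in Dach1OE, a change of −1.18 (−2.26 to −0.10) in ligand per decoy that was −0.93 (−2.04 to 0.19) without 1 Control cell. With the types weighted alike the change over BMSCs was 0.21, on the other side of 0 from the pooled value but without an interval. Proliferating BMSCs, with the Control cell of 16 decoy UMIs, weigh as much in it as dpMSCs. The value was not taken without that cell. Pooled over the types, the change was −0.41 in Xist cells and −1.47 in Y-linked cells.

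Among the classes of cells, the largest ratio between the libraries for any of the 3 genes was that of the decoy receptor in ECs. ECs of Control held 20 Tnfrsf11b UMIs in 20 cells (0.233%) and those of Dach1OE 148 in 121 cells (1.37%), or 0.703 and 5.11 CPM, 7.27-fold higher with a log2 ratio of 2.86 (2.18 to 3.61). Haematopoietic cells stood at 0.297 and 0.599 CPM, from 6 and 14 UMIs, a log2 ratio of 1.01 (−0.46 to 2.68) on the same side of 0. Megakaryocytes held 2 and 8 of these UMIs, 0.733 and 3.57 CPM. The median depth of haematopoietic cells was 4633 and 4511 UMIs against 2715 and 2748 in ECs. With every cell thinned to 1000 UMIs, 0.095% of Control and 0.393% of Dach1OE ECs had a UMI. Tnfrsf11b was the only one of the 3 genes that was 2-fold or more higher in ECs, as 4.13% of 15627 genes were, and none was that much lower, as 3.52% were. The direction was the same in cells of either sex, with 10 and 53 UMIs in Xist cells, 1.02 and 5.53 CPM, and 2 and 32 UMIs in Y-linked cells, 0.245 and 3.94 CPM.

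The UMIs were unevenly spread over the EC types. Arterial ECs (aECs), marked by Sema3g, Gja4 and Gja5, held 1 UMI among 417 Control cells and 40 among 1241 Dach1OE cells, 0.723 and 9.23 CPM. Bmx, another marker of their list, was sparse, at 106 and 31.8 CPM. ECs of type R (rECs), a vessel type of remodelling bone, held 1 among 510 and 28 among 533, 0.830 and 19.6 CPM, and 1 of these Dach1OE cells had 7. The name rests on C1qtnf9 (383 and 289 CPM), Cav1 (1741 and 2407 CPM) and Fmo2 (395 and 128 CPM), while Aqp7 stood at 5.81 and 68.1 CPM. The cells of this name thus differed between the libraries in markers of the type. At least 10% mitochondrial UMIs were found in 60.8% and 41.7% of them. A cluster without a subtype name, led by Pgf, Nos2 and Cxcr4, held 0 among 59 Control cells and 35 among 241 Dach1OE cells, in 25 cells (10.4%). Its level of 43.1 CPM in Dach1OE was 3.6 times the 12 CPM that 3 counts would have given in Control. The lower counting limit of the ratio was 2.78-fold. Metaphyseal ECs (mpECs, type H) had 3 and 17 UMIs, 0.712 and 3.11 CPM, whereas the sinusoidal bone marrow ECs (bmECs, type L) had 10 and 5, 0.533 and 0.923 CPM. The EC types were not held alike by the libraries, since bmECs were 5463 Control and 1598 Dach1OE cells and the Scgb3a1 cluster 101 and 2982. The latter held 1 and 12 UMIs, 5.49 and 1.38 CPM, so that it stood the other way, although on 1 UMI, and proliferating ECs held 4 and 11, 2.05 and 4.29 CPM. With the 5 named blood vessel types weighted alike, the Pgf and Scgb3a1 clusters left out, the levels were 0.970 and 7.44 CPM, and without the Scgb3a1 cluster alone the log2 ratio over ECs was 3.32.

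**Figure D4:**
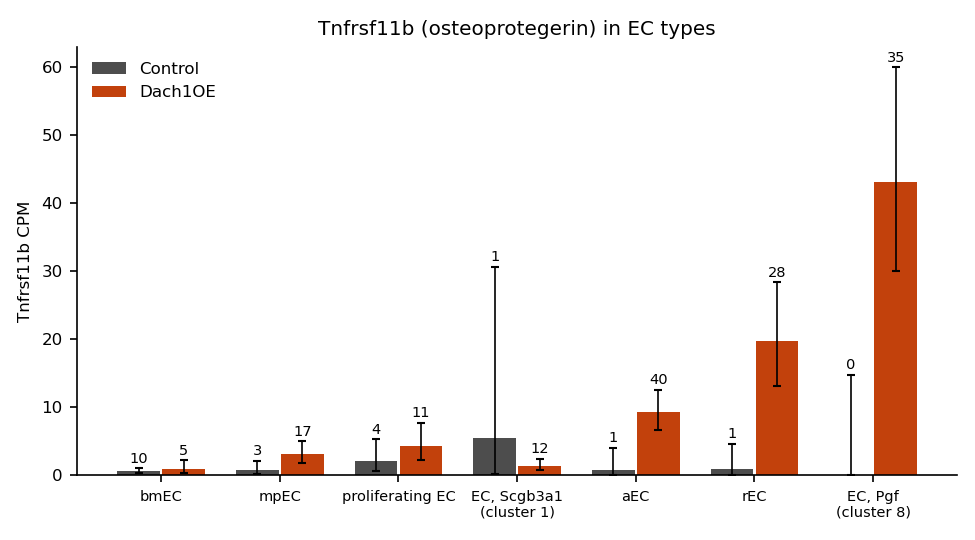
Tnfrsf11b in CPM (bars, with 95% Poisson intervals) in EC types of Control (grey) and Dach1OE (orange), with the number of UMIs above each bar. Dach1OE stands at 9.23 CPM in aECs, 19.6 CPM in rECs and 43.1 CPM in the Pgf cluster, while Control has 0 or 1 UMI in each.

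Within the Dach1OE library, ECs with a Dach1 UMI held more of the decoy than those without when all EC types were pooled. The 3412 cells with Dach1 held 84 Tnfrsf11b UMIs, 6.35 CPM (5.07 to 7.86), and the 5406 cells without held 64, 4.06 CPM (3.13 to 5.19). The intervals touch, and the cells with Dach1 were the deeper, at medians of 3362 and 2469 UMIs. The EC types differed in this. Among Dach1OE rECs, 77.8% of cells with a Tnfrsf11b UMI had a Dach1 UMI, against 32.4% of the others. In mpECs the shares were 62.5% and 32.3%. They were close to each other in aECs, at 45.7% and 45.4%, and in the Pgf cluster, at 56.0% and 58.3%. Markers of the other types that make osteoprotegerin were also higher over all ECs of Dach1OE. The summed level of 8 chondrocyte markers was 969 and 1428 CPM with all 8 higher, that of 8 osteoblast markers 968 and 1438 CPM with 7 higher, that of 8 fibroblast markers 30.0 and 38.4 CPM with 2 higher, that of 8 osteocyte markers 44.1 and 49.9 CPM with 5 higher, and that of 8 dpMSC markers 686 and 992 CPM with 4 higher. Their part in the difference was not tested. The 121 Dach1OE ECs with a Tnfrsf11b UMI had 1411 CPM of the chondrocyte, 23.8 of the fibroblast and 1207 of the osteoblast markers, against 1428, 38.7 and 1442 CPM in the other ECs, and 9428 against 8746 CPM of the EC markers. Their dpMSC markers stood at 1787 against 978 CPM. By type this differed. Among Dach1OE rECs, the 18 cells with a Tnfrsf11b UMI had 3550 CPM of the chondrocyte and 3586 CPM of the dpMSC markers, against 2179 and 1995 CPM in the others. The 35 such aECs had 859 and 2884 CPM, against 1558 and 3090 CPM in the others. In the Pgf cluster the values were 1376 and 772 CPM in 25 cells, against 1356 and 761 CPM. In mpECs they were 1132 and 664 CPM in 16 cells, against 1381 and 455 CPM. When cells were taken by marker scores, with doublet-like clusters not set aside, the ECs held 65 and 201 UMIs, a log2 ratio of 1.59.

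RANK had the fewest UMIs of the 3 genes, and ECs held the largest part of them. Tnfrsf11a had 288 UMIs in 270 Control cells (1.02%) and 249 in 236 Dach1OE cells (0.805%), of which ECs held 47.2% and 46.6%. In dpMSCs, which served as its level of free RNA, a UMI was found in 0.241% and 0.196% of cells at medians of 2685 and 2669 UMIs, close to the depth of the ECs. Lymphatic ECs, marked by Prox1 and Lyve1, had the highest level, 12 and 5 UMIs or 55.9 and 55.8 CPM, in only 85 and 34 cells. Without 1 Dach1OE cell with 2 UMIs the second level was 34.0 CPM, and the 9 Control cells with a UMI had 4788 CPM of lymphatic and 4370 CPM of chondrocyte markers, against 10518 and 1571 CPM in the others. Next were rECs with 21 and 22 UMIs, 17.4 and 15.4 CPM, in 3.73% and 4.13% of cells. Tagln and Mustn1 were among the leading genes of the rEC cluster. Its smooth muscle or pericyte markers stood at 1259 and 1842 CPM in the cells with a UMI and at 1094 and 846 CPM in the others. Over all ECs without a Tnfrsf11b UMI these markers stood at 96.7 and 132 CPM. The chondrocyte markers of rECs were 3216 and 3066 CPM in cells with a Tnfrsf11a UMI, against 1597 and 2191 CPM in the others. Osteoblast and dpMSC markers lay the other way. The part of these markers was not tested. The bmECs had 80 and 37 UMIs, 4.27 and 6.83 CPM, a log2 ratio of 0.68 (0.08 to 1.26) that was 0.60 (−0.02 to 1.19) without 1 cell, in 1.43% and 2.19% of cells. In all ECs there were 136 and 116 UMIs, 4.78 and 4.0 CPM, a log2 ratio of −0.25 (−0.62 to 0.11). By sex of the cells this ratio was −0.64 (−1.26 to −0.04) with Xist only and −0.13 (−1.08 to 0.81) with Y-linked UMIs only, while that of bmECs was 0.14 (−0.85 to 1.06) and 1.22 (−0.35 to 2.65).

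Mural cells were the other site of the receptor. The smooth muscle cluster led by Pln, Acta2 and Myh11 held 29 and 21 UMIs, 18.4 and 7.47 CPM, in 3.74% and 1.39% of cells, whereas the Rgs5 cluster, a pericyte marker, held 3 in each library. Over the whole class there were 32 and 24 UMIs, 9.14 and 3.66 CPM, a log2 ratio of −1.32 (−2.15 to −0.51). This was the only one of the 3 genes 2-fold or more lower in the class, where 1.92% of 12485 genes were. Most of these UMIs were in shallow cells, since cells of at least 4000 UMIs held only 3 and 5 and gave a log2 ratio of −0.12. Cells with under 10% mitochondrial UMIs held 2 and 1, for a ratio of −2.14 (−8.02 to 2.13). The median depth of the Acta2 cluster was 2149 and 1762 UMIs, with mitochondrial shares of 18.2% and 16.7%.

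Blood lineages had been depleted, and no cluster was named as macrophages or osteoclasts, the lineage in which RANK acts. In haematopoietic cells Tnfrsf11a had 20 and 14 UMIs, 0.989 and 0.599 CPM, in 0.586% and 0.36% of cells, a log2 ratio of −0.72 (−1.82 to 0.33). Of these, erythroid cells held 7 and 4. The macrophage gene C1qb had 0 and 1 UMI in haematopoietic cells, the fusion genes Ocstamp 0 and 1 and Dcstamp 8 and 8, and the protease Ctsk 34 and 44. Other genes of the osteoclast and macrophage lists had more, with 32 and 72 UMIs of Csf1r, 85 and 114 of Cd68, 209 and 254 of Ly6c2, 667 and 635 of Acp5, 1120 and 1393 of Ms4a6c and 1314 and 1252 of Lyz2. Myeloid progenitor-like cells, among them a cluster with Ly6c2, Irf8 and Csf1r among its leading genes, held 1 UMI of Tnfrsf11a in each library.

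Other genes of the pathway were drawn from lists of ligand partners, RANKL shedding, inducers of RANKL, regulators of osteoprotegerin, RANK signalling and osteoclast effectors, 73 genes in all. In BMSCs 69 passed the minimum of 20 UMIs, of which 0 were 2-fold or more higher and 5 that much lower in Dach1OE, beside 0.746% and 4.97% of all genes. The median log2 ratio of the 69 was −0.26 beside −0.21 for all genes. Il34, an alternative ligand of the macrophage colony-stimulating factor receptor, had 1043 and 238 UMIs, a level 4.42-fold lower in Dach1OE with a log2 ratio of −2.14. Il1r1, the receptor of the RANKL-inducing cytokine interleukin 1, had 1805 and 772 UMIs, 76.5 and 32.4 CPM (−1.24). The receptor chain Il11ra1 (−1.22), the prostaglandin receptor Ptger2 (−1.20) and the kinase Map3k14 of non-canonical NF-kB signalling (−1.15) made up the rest. After scaling by trimmed means 3 of the 69 were that much lower, beside 2.61% of all genes.

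Within dpMSCs these genes differed less. Il34 stood at 142 and 72.0 CPM (log2 ratio −0.98), Il1r1 at 219 and 178 CPM (−0.30), Il11ra1 at 33.8 and 22.6 CPM (−0.58), Map3k14 at 31.3 and 19.9 CPM (−0.65) and Ptger2 at 6.39 and 5.48 CPM (−0.22). Of 58 pathway genes measured there 2 were 2-fold or more higher, Mmp9 at 40.5 and 98.7 CPM and Lef1 at 2.70 and 5.83 CPM, and 0 that much lower, beside 1.18% and 1.77% of all genes in dpMSCs, and their median was −0.01. Csf1, which osteoclast precursors need beside RANKL, was 839 and 724 CPM in dpMSCs (−0.21) and 372 and 209 CPM in all BMSCs (−0.84), much like the ligand itself. Csf1, Mmp9 and Lef1 were named after their values were seen.

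The genes whose levels over the cell types were most like those of each member were found by Pearson correlation of log2(CPM + 1) over 34 types in both libraries, 68 points that share libraries and depth. For Tnfsf11 they were Podnl1 (r = 0.91), Wisp2 (0.90), Mmp13 (0.89), Cp (0.88) and C6 (0.87). For Tnfrsf11a, whose low counts make the measure weak, they were Rasal2 (0.73), Rasd2 (0.72), Arhgef7 (0.72), Amigo2 (0.72) and Nr2f2 (0.71). For Tnfrsf11b they were Pdgfrl, Nupr1 and Fxyd6 (0.85 each) and Zfp469 and Slc39a13 (0.84 each). Ranks gave 2 of the 5 for the ligand, Mmp13 and Podnl1, and 1 of the 5 for the decoy, Nupr1, but 0 of the 5 for the receptor. Ligand and decoy correlated with each other at 0.26, and the receptor with them at −0.04 and −0.27.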

How the data were processed

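Femur and tibia cells of 1 Control and 1 Dach1OE library were captured on the BD Rhapsody system. Per the file headers and labels, the deposited counts are UMIs per cell and gene after error correction (raw UMIs and reads are given beside them), made by the BD Rhapsody WTA Analysis Pipeline 1.11 with mm10 and intronic reads counted; whether strand was used is not given in the sources used here. The libraries had 1.51 and 1.45 reads per UMI, so that many molecules rest on a single read. Intronic counting can add UMIs from unspliced RNA.

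Cells with 500 to 6000 genes and under 25% mitochondrial UMIs were kept. They were clustered with Seurat 5.3.0 in R 4.3.3 (2000 variable genes, 30 principal components, resolution 0.5, and 0.4 within classes or 0.8 within haematopoietic cells), without 97 cell cycle genes, the 3 members and the pathway lists among the variable genes. Clusters were named from at least 3 detected markers, so that types may differ from the study's own. Doublets were scored with Scrublet in scanpy 1.11.5, and clusters with mostly marked cells, 1168 and 1224 cells, were set aside, as were 2263 and 2698 further kept cells of subclusters that were led by genes of another class, doublet-like or, within BMSCs, unnamed. UMIs were summed per library and type, divided by all UMIs of the type, and given with exact Poisson, binomial and conditional binomial intervals (95%, scipy 1.17.1); a count of 0 was given a floor of 3 counts. A gene was called past 2-fold from 20 UMIs over both libraries, and likeness was taken over genes with at least 200 UMIs and types with at least 50 cells per library. Pathway genes named were those past 2-fold in BMSCs and the 5 genes most like each member. The members, lists and tests were chosen with earlier results of these data known. TMM factors came from edgeR 4.0.16. The counting was tested on simulated data. Promoters and gene positions came from RefSeq (GRCm38.p6) and GENCODE vM21.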

Additional observations from a re-analysis of the deposited data

Results flagged for a closer look

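Ratios of Dach1OE over Control (log2) with counting intervals on opposite sides of 0 are listed here; in each case the difference between the types or sexes was itself not tested. Tnfrsf11b was 2.86 in all ECs and −0.21 in all fibroblasts. Tnfsf11 was −1.18 in osteoblasts, from 19 and 12 UMIs, and 0.42 in septoclast-like cells. Tnfrsf11b was 1.05 in mpMSCs and −1.06 in proliferating BMSCs. Among chondrocytes, Tnfrsf11b was 0.82 in hypertrophic cells and 0.77 in the upper zone, but −0.26, −0.60 and −0.43 in clusters 0, 2 and 3 and −0.42 in proliferating cells. By sex of the cells, Tnfrsf11b in all chondrocytes was −0.28 with Xist only and 0.27 with Y-linked UMIs only, and Tnfsf11 in dpMSCs was 0.41 and −0.53. Without the 1 cell with most UMIs in one library, a choice made after the data were seen, the interval came to include 0 for Tnfsf11 in osteoblasts (−0.94) and septoclast-like cells (0.37), and for Tnfrsf11b in mpMSCs (0.83), proliferating BMSCs (−0.23, without a Control cell with 16 of 36 UMIs), hypertrophic chondrocytes (0.60) and clusters 0 and 3 (−0.23 and −0.34). In every case each set of cells comes from 1 library per group.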

How the results depend on the processing

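Values are log2 ratios of Dach1OE over Control, and results for ECs, smooth muscle cells or pericytes, and dpMSCs were added after the data were seen. Tnfsf11 in BMSCs (−0.83) was −1.01 with mitochondrial UMIs under 10%, −0.64 in cells of at least 4000 UMIs, −0.32 with Xist only, −1.18 with Y-linked UMIs only, −0.62 with TMM factors and 0.17, reversed, with equal weights of the types. The 10% limit left out 72.8% and 69.3% of mpMSCs but 10.4% and 16.1% of dpMSCs. The change of the ligand to decoy ratio (−1.0) was −0.70 in cells of at least 4000 UMIs, −0.41 with Xist only, −1.47 with Y-linked UMIs only and 0.21, reversed, with equal weights. Tnfrsf11b in BMSCs (0.17) was 0.38 (0.17 to 0.59) with TMM factors, where the interval excludes 0. In ECs (2.86) Tnfrsf11b was 1.59 in cells gated one by one and 4.01 with Y-linked UMIs only. Tnfsf11 in dpMSCs (−0.14) was 0.19 in cells of at least 4000 UMIs, 0.41 with Xist only and −0.53 with Y-linked UMIs only. Tnfrsf11a in smooth muscle cells or pericytes (−1.32) was −0.12 in cells of at least 4000 UMIs. With Xist only it was −3.14 (−8.70 to 0.02), from 5 and 1 UMIs, and with mitochondrial UMIs under 10% it was −2.14, from 2 and 1 UMIs. In haematopoietic cells (−0.72) it was 0.34 with Y-linked UMIs only and −1.29 (−2.60 to −0.10) in cells gated one by one, where the interval excludes 0. With TMM factors 3 pathway genes were at least 2-fold lower in BMSCs. By the mean over the libraries of the share of cells after thinning, Tnfsf11 was highest in septoclast-like cells, though in Control alone dpMSCs were higher. By gating, among types with at least 50 cells per library, which leaves out lymphatic ECs, Tnfrsf11a was highest in smooth muscle cells or pericytes. Tnfsf11 of gated septoclast-like cells stood at 37.0 and 43.3 CPM, near that of gated mpMSCs. The causes were not tested. Equal weights remove the type shares by construction, give small types the weight of large ones and come without an interval. No paired analysis was possible because each group has 1 library.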
